A study of Mus musculus with 4 samples.

Results

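Chemokine ligands and their receptors form the gene family described here. They were taken from the deposited expression table by gene name: the numbered Ccl, Cxcl, Ccr and Cxcr genes, Ackr1 to Ackr4, Xcl1, Xcr1, Cx3cl1, Cx3cr1, Pf4, Ppbp and Ccrl2. This gave 68 of the 46072 genes in the table, 44 of them ligands and 24 receptors. Of the ligand entries 2, Ccl19-ps1 and Ccl19-ps3, are counted as pseudogenes. Cxcl11, which GENCODE M21 annotates as a polymorphic pseudogene, is counted with the other ligands. The data are poly(A) RNA-seq of 4 libraries labelled as endothelial cells of mouse brain vessels, cut from perfusion-fixed tissue by laser capture microdissection after immunolabelling. All 4 come from wild-type, untreated mice and form a single group, numbered here as replicates 1 to 4, and the sources used here do not name strain, age, sex or antibody. Nothing in the labels ties a library to its own animal, so the spread between replicates may be partly or wholly technical, and each p below measures that spread only.

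Chemokines are small secreted proteins that bind G protein-coupled receptors and direct the movement of cells. They are sorted by the spacing of the first cysteines of the mature protein into CC, CXC, CX3C and XC ligands. Homeostatic chemokines are made at rest and guide the traffic and placement of cells, whereas inflammatory ones are induced by cytokines such as tumour necrosis factor and interferons. In brain, CX3CL1 on neurons and endothelium binds CX3CR1 on microglia, CXCL12 on vessels holds leukocytes through CXCR4, and the atypical receptors take up or carry chemokines without G protein signalling.

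The cysteine spacing can be read in the coding sequences of several of the higher ligands. Ccl21b, Ccl27b and a second entry named Ccl27a, which ranked above Pf4 and Ccl17, are left out. Each line below gives 36 coding bases, 5′ to 3′ on the coding strand, around the first cysteine codons of the motif, which are in capitals (GENCODE M21, GRCm38). In Cx3cl1 (exon 2, chr8:94778039-94778074, plus strand) 3 codons lie between the cysteines. In the CXC ligands Cxcl14 (exons 1 and 2 joined, within chr13:56295900-56296113, minus strand), Cxcl12 (exon 2, chr6:117171496-117171531, plus strand) and Pf4 (exon 2, chr5:90772932-90772967, plus strand) 1 codon lies between them. In the CC ligands Ccl27a (exon 2, chr4:41769927-41769962, minus strand), Ccl25 (exon 3, chr8:4353885-4353920, plus strand) and Ccl17 (exon 2, chr8:94811200-94811235, plus strand) the cysteine codons are adjacent.
Cx3cl1: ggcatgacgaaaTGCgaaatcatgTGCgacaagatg
Cxcl14: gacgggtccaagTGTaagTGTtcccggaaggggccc
Cxcl12: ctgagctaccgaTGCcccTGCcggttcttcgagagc
Pf4: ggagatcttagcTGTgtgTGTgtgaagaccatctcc
Ccl27a: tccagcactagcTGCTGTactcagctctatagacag
Ccl25: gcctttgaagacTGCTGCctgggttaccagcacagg
Ccl17: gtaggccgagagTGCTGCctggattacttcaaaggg

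The libraries hold RNA of several brain cell types beside endothelium, which bears on every level below. Of 18 pan-endothelial markers, led by Ly6c1 and Ly6a, all were above 0 in every library and 14 lay above 1 FPKM (fragment counts divided by transcript length and by library size). Named after their values were seen, Erg lay below 1 FPKM and Robo4, Vwf and Cdh5 passed in neither direction. The within-library median of that list was 3.98 ± 0.724 FPKM (SD, n = 4). All 14 microglial markers, C1qb among them, lay above 1 FPKM with a median of 16.7 ± 1.36, and all 8 astrocyte, 8 oligodendrocyte, 10 neuron and 8 choroid plexus markers did so as well, with 7 of 10 pericyte and smooth muscle and 6 of 7 fibroblast markers. Summed FPKM ranged over libraries from 11701 to 17198 for the choroid plexus list, which Ttr leads, from 4929 to 6191 for oligodendrocytes, from 2241 to 2742 for neurons, from 921.4 to 1105 for astrocytes, from 341.0 to 466.2 for microglia and from 234.7 to 265.9 for endothelium. Markers of border macrophages (5.49 to 7.29 summed FPKM), of platelets (3.68 to 6.20) and of T cells, B cells, NK cells and neutrophils (7.10 to 14.8) were low. Of the last list, S100a9 and S100a8 lay above 1 FPKM, at 4.66 ± 2.22 and 3.50 ± 1.62, 9 of 12 tested lay below, and Ly6g and Klrb1c were listed at 0 in all 4 libraries. In bulk libraries such as these, fewer cells of a type cannot be told apart from less RNA per cell, and the part of these cell types in the chemokine levels was not tested.

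A few homeostatic or constitutive ligands carried most of the family's signal. All 68 genes together summed to 328.7 ± 21.3 FPKM (SD, n = 4), which is 0.0706% ± 0.00459 of a library's summed FPKM. The 4 highest, Ccl27a, Cx3cl1, Cxcl14 and Cxcl12, held 73.1% ± 0.552 of that sum. Above 0 in all 4 libraries were 35 genes (25 ligands and 10 receptors), or 51.5% against 39.3% of all genes in the table. A further 21 were above 0 in 1 to 3 libraries, and 12, or 17.6% against 45.3%, were listed at 0 in all 4. Those 12 are the ligands Ccl1, Ccl11, Ccl20, Ccl26, Cxcl3 and Cxcl15 and the receptors Ccr1l1, Ccr3, Ccr4, Ccr6, Ccr8 and Cxcr1. Summed ligand FPKM was 15.3 ± 0.960 times summed receptor FPKM, with 14.2 in replicate 1 and 16.4 in replicate 2 as the extremes.

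Each gene above 0 in any library was tested against 1 FPKM on the log2(FPKM + 1) scale with limma, adjusted over all 25206 such genes. Of the 56 family members tested, 17 lay above 1 FPKM, a share of 30.4%, against a background of 47.7% of all genes. Below it lay 27 members, or 48.2%, against 40.1% of all genes, and 12 passed in neither direction. Because the level is absolute, the split depends on the scale: with the FPKM of each library rescaled to a sum of 1000000, 23 members (41.1%) lay above and 17 (30.4%) below. On that scale 54.3% of all genes lay above and 29.7% below, so the share of members below was near the background, and the median difference of all genes from the level had moved from 0.27 to 0.99 on the log2 scale. On that scale the calls below 1 FPKM of Ccl3, Ccl5, Ccl21a, Cxcl5, Ccrl2, Ccr2, Ccr9, Ccr10, Cxcr4 and Cxcr6 were lost, and Ccl9, Ccl19, Ccl19-ps3, Cxcl16 and Ppbp were among those that lay above. The 17 genes above 1 FPKM are the upper 17 in the plot of FPKM by gene, where a gap with no overlap of libraries separates Ccl6 from Ccl19. Neighbours in the order of mean FPKM kept their order in 4 of 4 libraries, with ranges that did not overlap, from Ccl27a through Cx3cl1, Cxcl14 and Cxcl12 to Ccl25. From Ccl25 down to Ccl6 the ranges of neighbouring genes overlapped, so that part of the order is not resolved by these replicates.

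**Figure D1:**
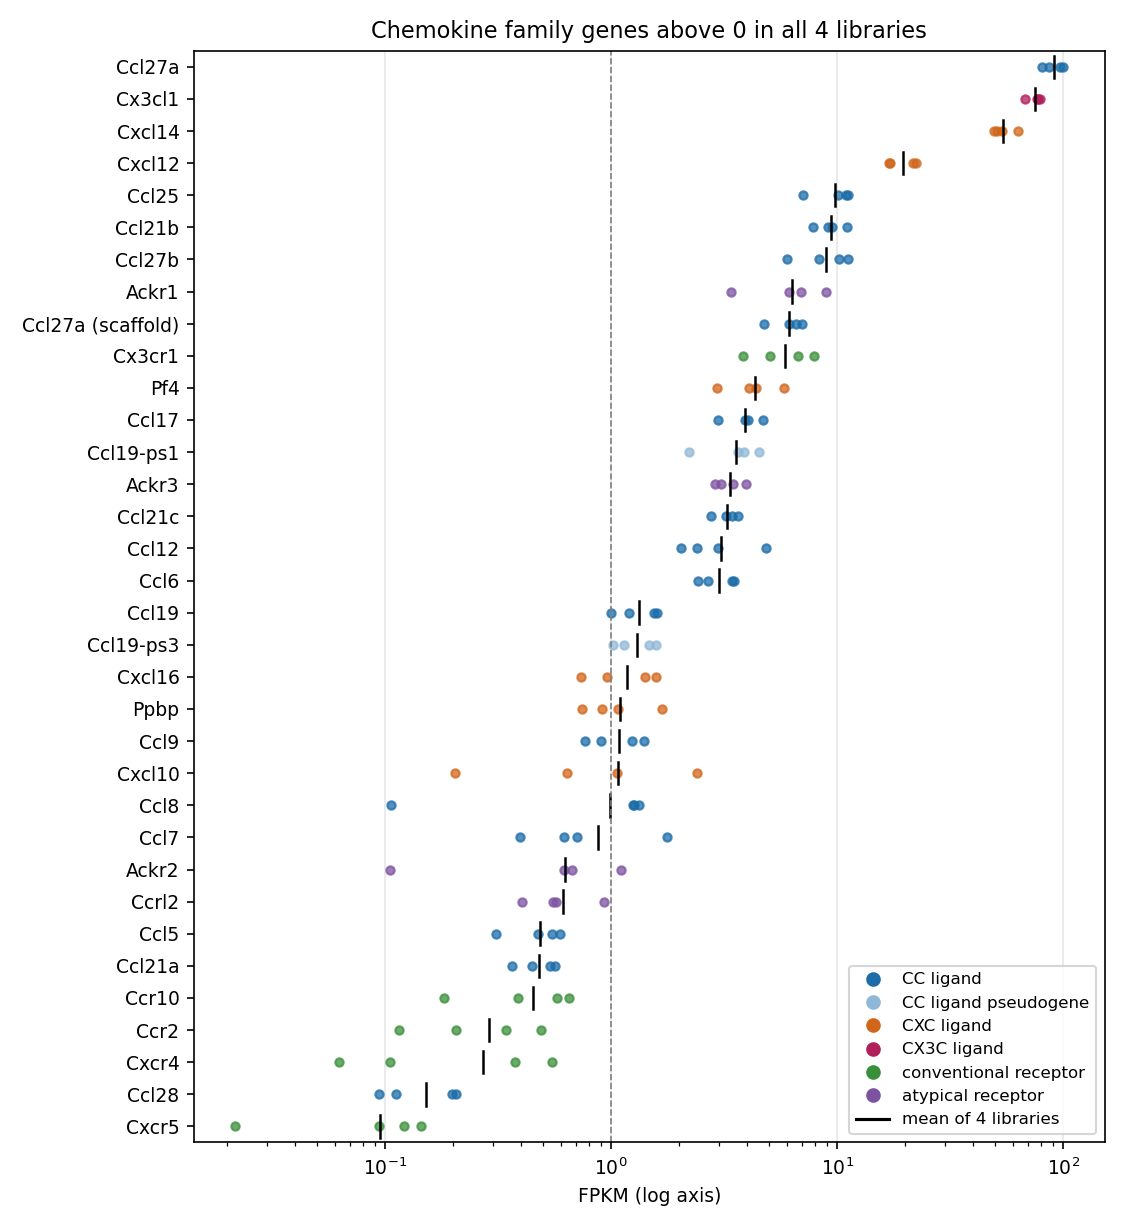
FPKM (log axis) of 34 family genes above 0 in all 4 libraries, with 1 point per library, a bar at the mean and colours for the kind of gene; the dashed line marks 1 FPKM. Ccl27a, Cx3cl1, Cxcl14 and Cxcl12 stand apart on the right, and Cxcl10, Ccl8 and Ackr2 have the widest spread among genes near 1 FPKM.

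Cx3cl1 (chromosome 8, 94772009 to 94782427, plus strand) encodes fractalkine, the sole CX3C ligand, made as a membrane-anchored protein that proteases can shed. It measured 77.4, 79.0, 76.7 and 67.7 FPKM in replicates 1 to 4. Replicate 4 was the lowest, and the coefficient of variation of 6.80% was the smallest of the 35 genes above 0 in every library. The mean of 75.2 ± 5.12 FPKM (SD, n = 4) placed it at the 95.9th percentile of all genes above 0, and its difference from 1 FPKM was 5.25 ± 0.05 (SE) on the log2(FPKM + 1) scale (limma, adjusted p = 1.00e-07).

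Among CXC ligands, Cxcl14 and Cxcl12 were far above the rest. Cxcl14 (chromosome 13, 56288643 to 56296551, minus strand), a constitutive chemokine of epithelia and of some neurons, measured 51.2, 63.0, 49.3 and 53.6 FPKM, highest in replicate 2. Its mean was 54.3 ± 6.06 FPKM (SD, n = 4). Cxcl12 (chromosome 6, 117168535 to 117181367, plus strand), the stromal ligand of CXCR4 and ACKR3, measured 16.9, 21.7, 17.2 and 22.2 FPKM, with replicates 2 and 4 high and replicates 1 and 3 low. Its mean of 19.5 ± 2.85 FPKM exceeded 1 FPKM by a log2(FPKM + 1) difference of 3.35 ± 0.09 (SE; limma, adjusted p = 1.04e-06). Pf4, platelet factor 4, measured 4.08, 4.39, 2.94 and 5.84 FPKM, and Ppbp, the platelet basic protein encoded beside it, 0.741, 0.910, 1.68 and 1.08 FPKM. The replicate with the least Pf4, replicate 3, had the most Ppbp. Of 8 platelet markers, only Itga2b lay above 1 FPKM, at 2.73 ± 0.611 FPKM, whereas 6 lay below it. Cxcl16, a scavenger receptor and CXCR6 ligand, measured 0.735, 1.58, 1.42 and 0.955 FPKM and passed in neither direction.

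The remaining CXC ligands were low. Cxcl10, an interferon-induced ligand of CXCR3, measured 0.204, 1.06, 2.39 and 0.641 FPKM. Its coefficient of variation of 87.9% was the largest of the 35 genes, and replicate 3 exceeded replicate 1 by 11.7 times. Cxcl10 shares 133 exonic bases with Art3 on the opposite strand, which had a mean of 7.68 FPKM. Whether Cxcl10 and Art3 shared reads was not tested. Cxcl10 passed in neither direction against 1 FPKM (limma, adjusted p = 0.856). The sign of its difference turned with replicate 1 or 4 left out, to 0.17 and 0.03 from -0.05 on the log2(FPKM + 1) scale. Its 2 relatives were listed at 0 or near it: Cxcl9 was above 0 in replicate 4 alone, at 0.116 FPKM, and Cxcl11 in replicates 3 and 4, at 0.0148 and 0.122. Of the neutrophil attractants, Cxcl5 measured 0.267, 0.661, 0.313 and 0 FPKM, Cxcl1 0.530, 0, 0.0301 and 0.186, Cxcl2 0.0713 in replicate 1 alone, and Cxcl3 was listed at 0 throughout. The B-cell attractant Cxcl13 lay between 0 and 0.299 FPKM.

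Ccl27a was the highest gene of the family. CCL27 is a homeostatic CC chemokine of skin that binds CCR10. Ccl27a (chromosome 4, 41769467 to 41774247, minus strand) measured 80.8, 97.2, 86.8 and 100.1 FPKM, and replicates 2 and 4 were the higher ones. The mean was 91.2 ± 9.01 FPKM (SD, n = 4), at the 96.7th percentile of genes above 0, with a log2(FPKM + 1) difference from 1 FPKM of 5.52 ± 0.07 (SE; limma, adjusted p = 1.19e-07). The locus is unusual: GENCODE M21 gives it 19 transcripts, of which 8 are protein coding, and 8 exonic bases are shared with Il11ra1 on the opposite strand, which measured 24.1 ± 3.02 FPKM. FPKM of the gene do not say how much of this signal was the chemokine's coding transcript.

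The CCL27 and CCL21 genes sit in a stretch of chromosome 4 (41769467 to 42773993) that holds near-identical copies, and their individual levels are uncertain. Over 360 coding bases Ccl27a and Ccl27b differ by 3 substitutions, C177T, G297A and A343C, with the Ccl27a base first and positions counted from 1 at the start codon. Ccl27b measured 5.99, 11.2, 8.33 and 10.2 FPKM. A second table entry named Ccl27a, placed by GENCODE M21 on the unlocalised scaffold JH584294.1, measured 4.75, 7.005, 6.14 and 6.61 FPKM. The entries shared their order of libraries only in part: all 3 were lowest in replicate 1, and the main Ccl27a was highest in replicate 4 but the other 2 in replicate 2. Summed, the 3 entries gave 106.3 ± 12.1 FPKM (SD, n = 4).

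Ccl21a and Ccl21b encode CCL21, a homeostatic CCR7 ligand of lymphoid tissue and lymphatic vessels. Over 399 coding bases they differ by 2 substitutions, counted likewise from the Ccl21a start codon: T84A and C194T. The lines show 31 coding bases around each difference, which is in capitals, because reads that cover neither position fit both genes in the coding part. The T84A window is in exon 2 (Ccl21a chr4:42773732-42773762, minus strand, and Ccl21b chr4:42255923-42255953, plus strand). The C194T window joins exons 2 and 3 (Ccl21a within chr4:42773528-42773652 and Ccl21b within chr4:42256033-42256157).
Ccl21a T84A: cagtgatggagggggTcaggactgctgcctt
Ccl21b T84A: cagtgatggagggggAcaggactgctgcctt
Ccl21a C194T: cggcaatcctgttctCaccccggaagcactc
Ccl21b C194T: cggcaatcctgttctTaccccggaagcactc

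The 3 Ccl21 entries had unequal FPKM despite this likeness. Ccl21b measured 7.82, 9.15, 9.45 and 11.0 FPKM, Ccl21c, which M21 names Ccl21b and places on scaffold GL456350.1, 2.77, 3.43, 3.21 and 3.65, and Ccl21a 0.363, 0.538, 0.564 and 0.446. The ranges of the 3 did not overlap. The annotated Ccl21b transcript is 402 bases long, against 870 for Ccl21a and 867 for Ccl21c, and FPKM divides by length. The sources used here do not say how reads that match several copies were shared. Summed, the 3 entries gave 13.1 ± 1.71 FPKM (SD, n = 4). That sum also depends on how reads were shared, because the transcripts differ in length. Ccl19, the other CCR7 ligand, measured 1.55, 0.997, 1.203 and 1.59 FPKM and passed in neither direction against 1 FPKM. Its pseudogene Ccl19-ps3 holds 324 of 324 bases in common with the Ccl19 transcript and measured 1.02, 1.47, 1.14 and 1.58 FPKM. Ccl19-ps1, with 323 of 327 bases in common, measured 3.86, 3.65, 4.49 and 2.21 FPKM. With each of the Ccl27, Ccl21 and Ccl19 sets summed as 1 feature, an alternative chosen after seeing the data, 14 of 50 members lay above 1 FPKM and 26 below. Without summing, 47.7% of all genes lay above and 40.1% below.

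Ccl25, a thymus and gut chemokine that binds CCR9, measured 11.1, 10.1, 7.06 and 11.0 FPKM. Replicate 3 was the low one, and the mean was 9.82 ± 1.89 FPKM (SD, n = 4). It shares 204 exonic bases with Elavl1 on the opposite strand, which measured 10.6 ± 1.43 FPKM, and the sources used here do not say whether counting used strand. Ccl17, a CCR4 ligand made by dendritic cells, lies beside Cx3cl1 on chromosome 8 and measured 4.68, 2.98, 4.03 and 3.90 FPKM. Its neighbour Ccl22, the second CCR4 ligand, was listed at 0 in replicates 1 and 4 and measured 0.477 and 0.181 FPKM in replicates 2 and 3. Ccl28, the mucosal CCR10 ligand, lay below 1 FPKM, between 0.0936 and 0.206.

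Many CC ligands, inflammatory ones among them, lie together on chromosome 11 (82035571 to 83664683). There 6 of 11 members were above 0 in all 4 libraries, against 39.3% of all genes in the table. None averaged more than the 3.07 FPKM of Ccl12. Ccl12, a monocyte attractant that binds CCR2, measured 2.40, 4.86, 2.96 and 2.05 FPKM, highest in replicate 2. Ccl6 measured 3.49, 3.42, 2.68 and 2.42 FPKM and its neighbour Ccl9 1.41, 1.24, 0.764 and 0.905, and both were higher in replicates 1 and 2 than in 3 and 4. Ccl12 and Ccl6 lay above 1 FPKM (limma, adjusted p = 0.00437 and 6.84e-04), whereas Ccl9 passed in neither direction. Ccl2, the main monocyte attractant, measured 0.767, 0.314, 0 and 1.03 FPKM, and Ccl7 0.618, 0.394, 0.707 and 1.77. Neither passed against 1 FPKM (limma, adjusted p = 0.0699 and 0.477), but without replicate 4 both lay below it (0.0304 and 0.0331). Ccl8 measured 1.25, 1.33, 1.26 and 0.106 FPKM, and without the low replicate 4 its difference turned from -0.07 to 0.19 on the log2(FPKM + 1) scale.

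Ccl3, Ccl4 and Ccl5 encode inflammatory ligands of activated microglia and T cells. Ccl4 measured 1.10, 1.14, 0 and 1.03 FPKM, so replicate 3 differed from the other 3 libraries, and without it the log2 difference moved from -0.20 to 0.06. Ccl3 was listed at 0 in replicates 1 and 3 and measured 0.272 and 0.833 FPKM in replicates 2 and 4. Ccl5 measured 0.309, 0.477, 0.549 and 0.595 FPKM and lay below 1 FPKM (limma, adjusted p = 0.0026).

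By textbook use, assigned after values were seen and given only as a description, the 12 homeostatic ligand entries had a median of mean FPKM of 7.53 and 11 were above 0 in all 4 libraries. The 18 inflammatory ones had a median of 0.231, with 5 above 0 in all 4 libraries, 9 in some and 4 listed at 0. The other 12 had a median of 1.09, and the median over all genes above 0 in any library was 1.45. Summed FPKM was 204.6 ± 20.9 for the homeostatic and 8.79 ± 1.25 for the inflammatory ligands (SD, n = 4). Against 1 FPKM the homeostatic entries were 8 above and 3 below of 12 tested, and the inflammatory ones 1 above and 8 below of 14 tested. Over all genes tested, 47.7% lay above and 40.1% below, and 39.3% of all genes in the table were above 0 in all 4 libraries. Ccl27 and Ccl21 account for 3 homeostatic entries each, so these are not independent genes.

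Of 13 conventional receptors tested, which signal through Gi proteins, Cx3cr1 alone lay above 1 FPKM and 11 lay below it, against 47.7% and 40.1% of all genes. Cx3cr1 (chromosome 9, 119901616 to 120069879, minus strand), the fractalkine receptor that marks microglia, measured 5.05, 7.93, 3.83 and 6.70 FPKM. Replicate 2 was highest and replicate 3 lowest, and the summed microglial list had its extremes in the same libraries, at 466.2 and 341.0 FPKM. The summed endothelial list (265.9 and 234.7 FPKM) and neuron list (2742 and 2241 FPKM) had theirs there too. The match is therefore not particular to microglia, and the source of the Cx3cr1 signal was not tested. The mean was 5.88 ± 1.80 FPKM (SD, n = 4), and the log2 difference from 1 FPKM was 1.74 ± 0.17 (SE; limma, adjusted p = 2.25e-04). Ccr2, the receptor of blood monocytes, measured 0.488, 0.342, 0.115 and 0.206 FPKM and lay below 1 FPKM. Cxcr4, the signalling receptor for CXCL12, measured 0.105, 0.546, 0.0626 and 0.374 FPKM and also lay below it.

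The other conventional receptors named here stayed under 1 FPKM in every library. Ccr10, the receptor for CCL27, measured 0.388, 0.183, 0.648 and 0.578 FPKM. Ccr9 measured 0, 0.812, 0.280 and 0.123 FPKM, and its annotated exons share bases with 3 other genes, Slc6a20a among them at 21.9 ± 3.73 FPKM. Cxcr5 was above 0 in each library but at most 0.144 FPKM, and shares 110 exonic bases with Bcl9l on the opposite strand, at 0.711 ± 0.232 FPKM. Lymphocyte and neutrophil receptors were seen in some libraries: Cxcr6 at 0.437 and 0.494 FPKM in replicates 1 and 3, Cxcr3 at up to 0.341, Ccr1 at 0.512 and 0.185 in replicates 2 and 4, and Cxcr2 at 0.133 and 0.0949 in replicates 1 and 3. Xcr1, the receptor of cross-presenting dendritic cells, was above 0 in replicate 3 alone, at 0.302 FPKM, and its ligand Xcl1 in replicates 1 and 2, at 0.0846 and 0.231. Xcl1 shares 98 exonic bases with Gm20743 on the opposite strand, at 0.980 ± 0.188 FPKM. Ccr7, the receptor for CCL19 and CCL21, was above 0 in replicate 4 alone, at 0.0967 FPKM.

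The 5 atypical receptors were all above 0 in at least 3 libraries. Ackr1, the Duffy antigen receptor that carries inflammatory chemokines across venular endothelium, measured 8.88, 3.40, 6.95 and 6.14 FPKM, with replicate 2 low. The mean was 6.34 ± 2.28 FPKM (SD, n = 4; limma against 1 FPKM, adjusted p = 4.48e-04). Ackr1 shares 361 exonic bases with Cadm3 on the same strand, so reads from those bases may not be separable. Cadm3, a neuronal adhesion gene, measured 3.84, 1.87, 5.66 and 5.02 FPKM. Both genes were lowest in replicate 2, but Ackr1 was highest in replicate 1 and Cadm3 in replicate 3. Whether the 2 genes shared reads was not tested. Ackr3, which takes up CXCL12, measured 3.07, 2.87, 3.47 and 3.96 FPKM and lay above 1 FPKM (adjusted p = 2.64e-04). Ackr2, a scavenger of inflammatory CC ligands in lymphatic vessels, measured 0.105, 1.11, 0.620 and 0.670 FPKM and passed in neither direction, though without replicate 2 it lay below 1 FPKM (limma, adjusted p = 0.0398). Ccrl2, which binds chemerin, measured 0.403, 0.929, 0.573 and 0.552 FPKM and lay below 1 FPKM (adjusted p = 0.0272). That call was lost without replicate 1, 3 or 4 (0.105, 0.0782 and 0.0898) and with each gene's own spread (0.0537). Ackr4, a scavenger of CCL19, CCL21 and CCL25, measured 0.106, 0, 0.185 and 0.447 FPKM and shares 479 exonic bases with Acad11 on the opposite strand, at 5.77 ± 1.35 FPKM.

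Ligands were set beside their receptors within each library where both genes were above 0 in all 4 libraries, which held for 5 of 13 listed pairs, 4 of them given here. Cx3cl1 exceeded Cx3cr1 by 9.96 to 20.03 times in FPKM, a log2(FPKM + 1) difference of 3.51 ± 0.42 (SD, n = 4). Cxcl12 exceeded Cxcr4 by 39.7 to 274.3 times (4.02 ± 0.10) and Ackr3 by 4.96 to 7.54 times (2.23 ± 0.23). Ccl27a exceeded Ccr10 by 133.9 to 531.8 times (5.998 ± 0.27). The wide ratios of the Cxcr4 and Ccr10 pairs come with receptors under 1 FPKM in every library. The ligand was higher in 4 of 4 libraries in each of the 4 pairs given, and no direction is given for the pair left out. The exact 2-sided sign-flip test gave p = 0.125 for each of the 4, also after adjustment over the 5 pairs. That is the smallest p that 4 libraries allow.

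**Figure D2:**
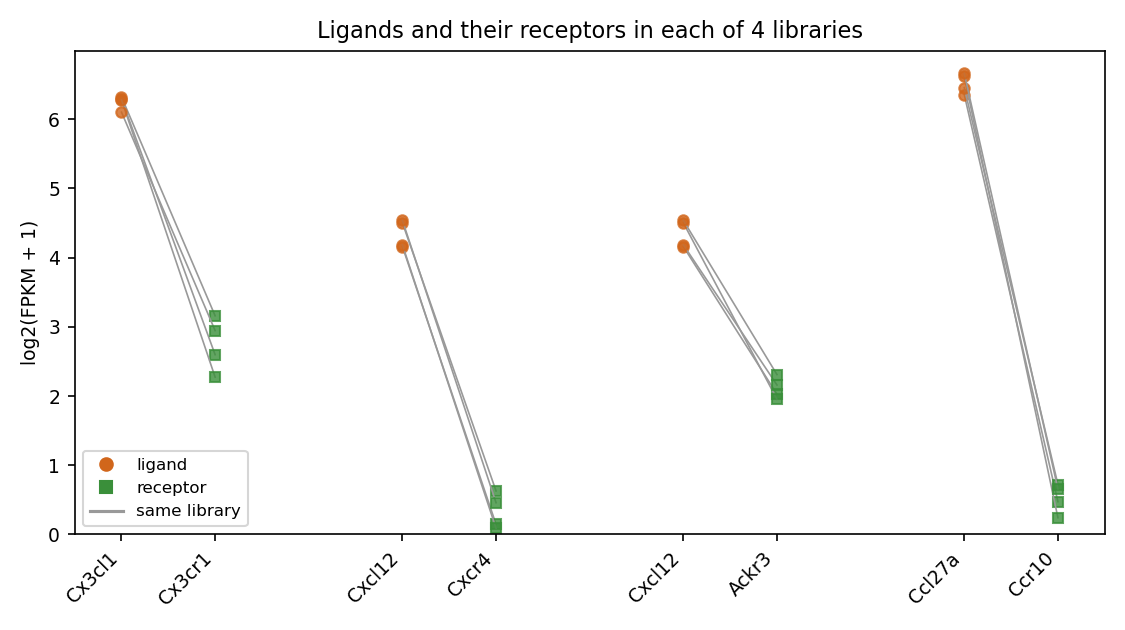
Ligand (circles) and receptor (squares) levels as log2(FPKM + 1) for 4 binding pairs, with a line for each of the 4 libraries. Every line falls from ligand to receptor, most steeply from Ccl27a to Ccr10.

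Levels were next compared within each library with the median of the endothelial markers. By limma, 10 members lay above that median, or 17.9% of 56 against a background of 32.3% of all genes, and 39 below, or 69.6% against 58.8%. The differences on the log2(FPKM + 1) scale were 4.22 ± 0.16 (SE) for Ccl27a, 3.95 ± 0.16 for Cx3cl1, 3.48 ± 0.15 for Cxcl14, 2.05 ± 0.15 for Cxcl12, 1.12 ± 0.16 for Ccl25, 1.07 ± 0.16 for Ccl21b and 0.98 ± 0.16 for Ccl27b. The same median is subtracted from every gene, so its error is common to them and limma's shared spread makes these p-values too small. With each gene's own spread in place of the shared one, chosen after seeing the data, those 7 remained above, or 12.5% of members against 30.2% of all genes (adjusted p of 0.00103 for the upper 3, 0.00346 for Cxcl12, 0.0130 for Ccl25, 0.0164 for Ccl21b and 0.0429 for Ccl27b). The other 3 did not: Ackr1 at 0.52 (adjusted p = 0.115), the scaffold copy of Ccl27a at 0.52 (0.0893) and Cx3cr1 at 0.44 (0.210). Cx3cr1 also lost its call by limma without replicate 2 or 4 (adjusted p = 0.168 and 0.134). Pf4, Ccl17, Ccl19-ps1, Ackr3, Ccl21c, Ccl12 and Ccl6 passed in neither direction by limma. Ccl12 lay below the median without replicate 2, at -0.52 (adjusted p = 0.0241), and Ccl6 did so with its own spread, at -0.31 (0.0323).

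Against the higher median of the microglial markers, 4 members lay above, or 7.14% against 14.4% of all genes, and 52 below, or 92.9% against 81.3%. Ccl27a, Cx3cl1 and Cxcl14 exceeded it by 2.42 ± 0.07 (SE), 2.14 ± 0.08 and 1.68 ± 0.08 on the log2(FPKM + 1) scale. Cxcl12 exceeded it by 0.24 ± 0.10 (limma, adjusted p = 0.0194), a call lost without replicate 2 (0.0902) or replicate 4 (0.0502). Cx3cr1, itself a microglial gene, lay 1.74 above 1 FPKM but -1.36 ± 0.15 from the microglial median.

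**Figure D3:**
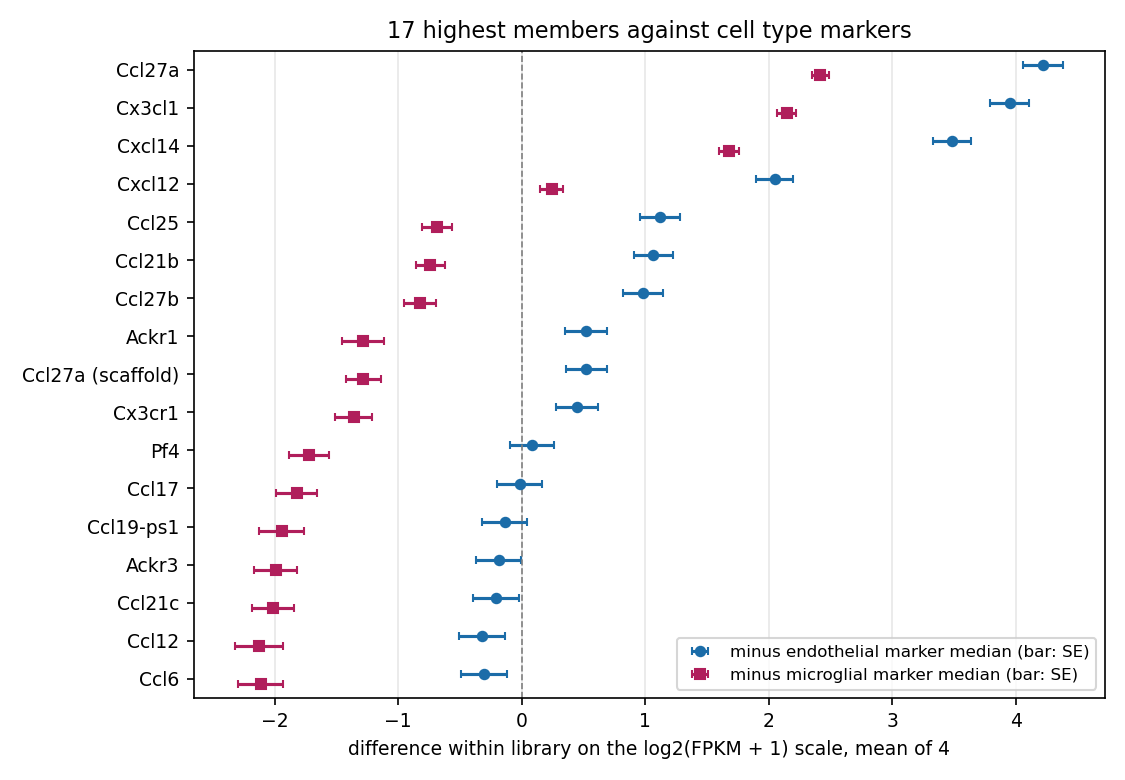
Mean within-library difference, on the log2(FPKM + 1) scale, of the 17 highest members from the endothelial marker median (circles) and the microglial marker median (squares), with bars for limma's SE over 4 libraries. Every circle lies to the right of its square, and Ccl27a, Cx3cl1, Cxcl14 and Cxcl12 lie to the right of 0 against both.

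Other genes of the chemokine pathway were mostly above 1 FPKM. Over 7 lists with 106 genes, 74 of the 104 tested lay above it, 16 below and 14 in neither direction (limma), against the 47.7% above and 40.1% below of all genes. With rescaled FPKM the split was 82 above and 6 below, against 54.3% and 29.7% of all genes. All 10 genes of the G proteins that chemokine receptors couple to lay above 1 FPKM, led by Gng5 at 146.9 ± 17.5 FPKM, Gnai2 at 84.6 ± 5.37, Gnb1 and Gnai1, with Gnai3 and Gnaq lowest at 14.3 ± 1.34 and 13.7 ± 1.496. Of 12 kinases, arrestins and RGS proteins, which end receptor signalling, 9 lay above and 1 below. Rgs4, Rgs10, Rgs2 and Arrb2 were highest, at 96.1 ± 11.8, 47.2 ± 1.68, 26.2 ± 3.34 and 19.98 ± 1.52 FPKM. The immune-cell regulator Rgs1 lay below 1 FPKM, and Rgs18, a platelet and myeloid regulator at 0.555 ± 0.488, passed in neither direction.

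Of 20 effectors of cell migration, 11 lay above 1 FPKM and 5 below, against 47.7% and 40.1% of all genes. The general GTPases Cdc42, Rhoa and Rac1 measured 284.3 ± 27.2, 88.7 ± 4.92 and 82.0 ± 6.75 FPKM, and the adaptor Elmo1 29.1 ± 1.27. The PI3K-gamma subunit Pik3r5, at 0.242 ± 0.259, lay below.

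Proteins that modify or hold chemokines were mostly measured. Of 10 proteases and sulfotransferases, 7 lay above 1 FPKM, against 47.7% of all genes. The tyrosine sulfotransferases Tpst1 and Tpst2, which modify chemokine receptors, measured 25.7 ± 2.01 and 11.4 ± 1.59 FPKM. Adam10, a protease that sheds CX3CL1 and CXCL16, measured 10.4 ± 1.44, and Mmp14 5.64 ± 0.936. The peptidase Dpp4, which trims CXCL12, passed in neither direction at 0.718 ± 0.468, and Mmp9 lay below 1 FPKM. Of 14 genes of heparan sulfate synthesis and of proteoglycans, on which chemokines are displayed, 11 lay above and 2 below. Over all genes, 47.7% lay above and 40.1% below. The syndecans Sdc4, Sdc2 and Sdc3 measured 32.6 ± 2.63, 28.4 ± 1.28 and 16.9 ± 4.23 FPKM and Hs6st2 15.3 ± 1.35. Vcan and the basement membrane proteoglycan gene Hspg2 were below, at 0.369 ± 0.160 and 0.159 ± 0.0913.

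Among 24 cytokine, receptor and signalling genes that induce chemokines, 22 were tested, and 13 lay above 1 FPKM and 6 below. The shares of all genes were 47.7% above and 40.1% below. The NF-kappaB inhibitor Nfkbia measured 25.3 ± 3.68 FPKM, and the interferon receptor chains Ifnar2, Ifngr2 and Ifngr1 20.9 ± 2.12, 17.2 ± 2.21 and 11.2 ± 0.760. The interferon genes Ifng and Ifnb1 were listed at 0 in all 4 libraries. Named after their values were seen, Tnf was above 0 in replicate 2 alone, at 0.0526 FPKM, and Il1b lay below 1 FPKM at 0.551 ± 0.276. Of 16 chemokine-like factors outside the family and their receptors, 13 lay above and 1 below. Mif, a cytokine that binds CXCR4 and CD74, measured 284.1 ± 14.4 FPKM, Hmgb1, which pairs with CXCL12, 141.2 ± 10.4, and Cmtm5 82.1 ± 11.4. The chemerin gene Rarres2 measured 35.8 ± 7.91 FPKM, while its signalling receptor Cmklr1 measured 0.212, 0, 0 and 0.202 and lay below 1 FPKM. Cd44, a hyaluronan receptor, passed in neither direction at 1.02 ± 0.383.

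**Figure D4:**
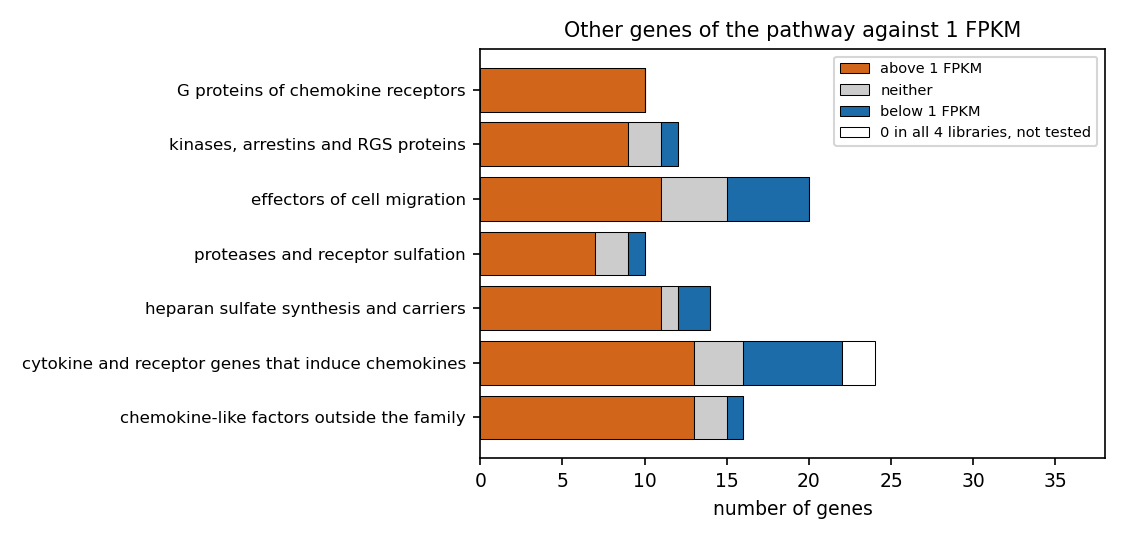
Number of genes in each of 7 pathway lists that lay above 1 FPKM, below it or in neither direction by limma, with genes at 0 in all 4 libraries shown open. The G protein list is above throughout, and the lists of migration effectors and of cytokine genes hold the most genes below, 5 and 6.

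Much of the family lies in genomic clusters, here runs of members with gaps of at most 2 Mb. All 7 members of the chromosome 4 cluster, near-identical copies among them, were above 0 in every library, against 39.3% of all genes in the table. In the chromosome 5 cluster of CXC ligands (90759360 to 92365485) this held for 3 of 10, with Pf4 highest at 4.31 FPKM. The receptor cluster on chromosome 9 (119901616 to 124147699) had 4 of 11, with Cx3cr1 highest. Ccl22, Cx3cl1 and Ccl17 lie within chromosome 8, 94745590 to 94812036, and span from 0.165 to 75.2 in mean FPKM.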

How the data were processed

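Poly(A) RNA-seq was done on 4 libraries in 1 group. The authors deposited 1 table of FPKM with 46072 genes. Per the submitters' processing notes, the tools were HISAT2 2.2.1, StringTie 2.2.1, SAMtools and bcl2fastq 2.20, on build GRCm38. The sources used here give no roles for them, no annotation release, no strand setting and no rule for reads that match several copies. An FPKM is a fragment count divided by transcript length and library size, so overlapping genes, short annotated transcripts and near-identical copies can shift a level. No step size turned more than 18.6% of low values into whole reads (within 0.05, where an even spread gives 10%), so read depth is unknown, no counting interval is given, and a 0 is described as listed at 0. Libraries were mapped to columns by library name, with 0 columns left out, and no pair of libraries shared more than 4 identical values above 0.

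Values were analysed as log2(FPKM + 1). A moderated 2-sided test with a variance trend (limma 3.58.1, R 4.3.3) was run for 25206 genes above 0 in any library, against 1 FPKM and, within library, against the median of 18 endothelial or 14 microglial markers, with Benjamini-Hochberg adjustment over all genes and a threshold of 0.05. Pairs used an exact 2-sided sign-flip test with 16 patterns. Simulated data with known shifts were used to check a limma fit without the variance trend and without a marker median. They did not check the trended fit or the comparisons with marker medians. Copies, overlaps and sequences came from GENCODE M21, which covers 45223 genes of the table. The members, the 18 lists (219 entries, 2 matched by synonym) and the tests were chosen with earlier results of these data known. Named are members above 0 in all 4 libraries, others with a known role, the 4 highest and 2 lowest genes of a pathway list (some without a value), and the 2 highest of a marker list with any at 0; exceptions are marked, and a few of these genes stay in all fits and counts but are not reported here by name. Alternatives covered pseudocount, filter, scale, level, variance model and each library left out. Those chosen after seeing the data summed copies, left out members with shared exonic bases, or used each gene's own spread. Figures were drawn with matplotlib 3.10.9.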

Additional observations from a re-analysis of the deposited data

Results flagged for a closer look

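Dixon's test at its 95% level marked 1 library as far from the other 3 in 7 of 71 sets of 4 values. Its chance rate of about 1 in 20 sets does not hold for low genes with values at 0. Ccl8 was 0.106 FPKM in replicate 4 and 1.25 to 1.33 in the others. Ccl4 was listed at 0 in replicate 3 and measured 1.03 to 1.14 FPKM elsewhere. Cxcl11 was 0.122 FPKM in replicate 4, 0.0148 in replicate 3 and 0 in the others. The remaining 4 genes were above 0 in 1 library only, which meets the test by construction: Xcr1 at 0.302 FPKM in replicate 3, Cxcl9 at 0.116 and Ccr7 at 0.0967 in replicate 4, and Cxcl2 at 0.0713 in replicate 1.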

How the results depend on the processing

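Of 82 comparisons of single members, 53 kept direction and side of the threshold under every alternative run, 14 lost and 10 gained a call in at least 1, and 12 turned direction. With FPKM rescaled to a sum of 1000000, 17 members in place of 27 and 6 pathway genes in place of 16 lay below 1 FPKM, and against a level of 0.5 FPKM 7 pathway genes did. Log2 differences that turned positive were, rescaled and against 0.5 FPKM, 0.42 and 0.27 for Ccl7, 0.51 and 0.34 for Ccl8, 0.31 and 0.21 for Ccl4, 0.52 and 0.36 for Cxcl10, 0.19 and 0.096 for Ccrl2 and 0.13 and 0.079 for Ackr2. Rescaled only, they were 0.0138 for Ccl5 and 0.0135 for Ccl21a. Both alternatives lower the level relative to the values. With each library left out in turn, the sign changed within the range from -0.17 (without replicate 2) to 0.19 (without 4) for Ccl8, -0.30 (2) to 0.064 (3) for Ccl4, -0.32 (3) to 0.17 (1) for Cxcl10, -0.029 (1) to 0.12 (3) for Ccl9 and -0.071 (3) to 0.14 (1) for Ppbp against 1 FPKM. Against the endothelial median it did so from -0.14 (4) to 0.24 (3) for Pf4 and -0.12 (4) to 0.072 (2) for Ccl17; none of these values passed its test. Leaving out each library gave 17 members above and 25 to 28 below 1 FPKM, 9 to 10 above and 37 to 40 below the endothelial median, and 3 to 4 above and 50 to 52 below the microglial one, of 54 to 56 tested. Of all 24314 to 24599 genes then tested, 11579 to 11825 lay above and 8909 to 9032 below 1 FPKM. Against the endothelial median, 7823 to 8173 lay above and 13569 to 14181 below. For the microglial median the counts were 3515 to 3675 above and 19511 to 19740 below. With each gene's own spread, 7 members in place of 10 lay above the endothelial median. Without members that share exonic bases, 14 of 46 lay above and 22 below 1 FPKM, against 47.7% and 40.1% of all genes tested. The 4 pair differences kept their sign, and the smallest p without a library is 0.25. No paired analysis was possible because there is 1 group.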
